A study of Mus musculus with 92 samples.

Results

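Sox1, Pax6, Neurog1, Neurog2, Nes and Olig2, here called the neural regulator genes, were chosen by name, and their chromatin was described from the cohesin and CTCF peaks called around each of them. All 6 were found among the 21883 protein-coding genes of the mouse annotation used. Around them, cohesin peaks away from CTCF were most numerous in STAG2 lists of epiblast-like cells, were nearly absent from STAG1 and STAG2 lists of germline stem cells, and were present again in the STAG3 lists of those same germline stem cells. Over all protein-coding genes the mean per gene was also highest in STAG2 lists of epiblast-like cells, at 2.59. In germline stem cells it was 0.00953 for STAG1, 0.426 for STAG2 and 1.41 for STAG3. Neurog1 differed, with fewer such peaks on average in STAG2 lists of epiblast-like cells than of embryonic stem cells.

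The data were 30 peak lists from chromatin immunoprecipitation followed by sequencing (ChIP-seq), from a series of 92 samples. STAG1 and STAG2 had been profiled in wild-type (WT) cells of 5 types. These were ESC (embryonic stem cells), EpiLC (cells like those of the epiblast), d2PGCLC and d4c7PGCLC (2 stages of cells like primordial germ cells) and GSC (germline stem cells). ESC, EpiLC and both PGCLC stages came from a single line, named BDF1-2-1 and abbreviated BVSC, that carries a Blimp1-mVenus and a Stella-ECFP reporter, and PGCLC were sorted for the first of these reporters. GSC came from another line, AAG, with Acrosin-EGFP and beta-Actin-EGFP transgenes, and were sorted as AAG-positive, so cell type and cell line cannot be told apart for GSC. There were 2 STAG1 lists for every cell type. STAG2 had 2 lists for ESC, 2 for EpiLC and 3 for each of d2PGCLC, d4c7PGCLC and GSC, and the 3 STAG3 lists were all from WT GSC. CTCF had 1 pooled list in each of 4 mutant GSC genotypes, all in the AAG line: Stag3 KO, Stag2Stag3dKO (Stag1-only), Stag1Stag3dKO (Stag2-only) and Stag1Stag2dKO (Stag3-only). How many clones each mutant came from is not given in the sources used here. Expression was not measured in these lists, so the identity of the cells could not be checked against marker genes.

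Cohesin is a ring-shaped complex that extrudes loops of DNA and holds sister chromatids together. Each ring carries a single STAG subunit, STAG1 or STAG2 in most cells and STAG3 in germ cells, where it is best known from meiosis. CTCF, a zinc-finger protein, stops cohesin at its binding sites, so many cohesin peaks coincide with CTCF, and the others often lie at promoters and enhancers. Sox1 and Pax6 encode transcription factors of neural progenitors. Neurog1 and Neurog2 encode proneural basic helix-loop-helix factors that start neuronal differentiation. Nes encodes nestin, an intermediate filament protein of neural stem cells, and Olig2 encodes a basic helix-loop-helix factor of motor neuron and oligodendrocyte progenitors. All but Nes are transcription factor genes that pluripotent cells typically keep silent until neural differentiation.

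For each gene the window was the gene body with 20 kb on either side, in GRCm38 coordinates. The gene bodies are Sox1 at chr8:12395519-12399555 (plus strand), Pax6 at chr2:105668896-105698410 (plus), Neurog1 at chr13:56250478-56252180 (minus), Neurog2 at chr3:127632733-127635636 (plus), Nes at chr3:87971093-87980451 (plus) and Olig2 at chr16:91225550-91228677 (plus). Windows measured 41.7 to 49.4 kb except for Pax6, a longer gene, whose window measured 69.5 kb. Every window holds another gene, so a peak there need not belong to the gene named. The Sox1 window holds the long noncoding RNA Sox1ot, and that of Pax6 holds Pax6os1, Paupar and the coding gene Elp4. The Nes window holds the coding genes Crabp2 and Bcan, the long noncoding RNA Gm32518 and the pseudogene Gm3745. That of Neurog2 holds the coding gene Zgrf1 and the long noncoding RNA Gm40147. The Neurog1 window holds the long noncoding RNA 4930550C17Rik, and that of Olig2 holds the long noncoding RNA Gm52261.

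A CTCF site was an interval called for CTCF in all 4 GSC genotypes, which held for 36623 of 47107 merged intervals. CTCF was mapped in mutant GSC alone, so a site bound by CTCF in another cell type only counts here as off CTCF. Neurog1 had 4 CTCF sites in its window, Neurog2 and Nes had 3 each, Sox1 and Olig2 had 1 each, and Pax6 had none. The median over all protein-coding genes was 2 sites, and 25.3% of genes had none. Among the 7611 genes at least as long as Pax6, 12.8% had none.

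The promoters show how the genes differ at their starts. The next 4 sequences are the 250 bases before the annotated start, from RefSeq for GRCm38.p6, written 5′ to 3′ on the strand of the gene, with bases covered by any STAG peak in capitals. They were chosen as the range seen, from a start under STAG2 and STAG3 peaks to a start under none: Olig2 at chr16:91225300-91225549 (plus strand), Neurog1 at chr13:56252181-56252430 (minus), the first Pax6 promoter at chr2:105668646-105668895 (plus) and Neurog2 at chr3:127632886-127633135 (plus).
Olig2: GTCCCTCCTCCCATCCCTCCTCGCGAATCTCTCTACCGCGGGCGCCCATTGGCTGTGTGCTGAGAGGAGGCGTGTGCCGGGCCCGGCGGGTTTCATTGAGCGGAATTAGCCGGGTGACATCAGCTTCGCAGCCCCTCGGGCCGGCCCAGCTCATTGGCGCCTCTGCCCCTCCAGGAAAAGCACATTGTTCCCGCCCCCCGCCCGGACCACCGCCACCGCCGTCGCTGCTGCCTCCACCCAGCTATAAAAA
Neurog1: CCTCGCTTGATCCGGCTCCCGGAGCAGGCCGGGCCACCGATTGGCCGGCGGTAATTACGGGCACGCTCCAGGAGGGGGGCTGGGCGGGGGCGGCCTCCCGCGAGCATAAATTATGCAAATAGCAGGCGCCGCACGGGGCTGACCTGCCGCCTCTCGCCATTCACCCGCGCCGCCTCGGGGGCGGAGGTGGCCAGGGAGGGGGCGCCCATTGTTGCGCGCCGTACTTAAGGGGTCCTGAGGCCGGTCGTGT
Pax6: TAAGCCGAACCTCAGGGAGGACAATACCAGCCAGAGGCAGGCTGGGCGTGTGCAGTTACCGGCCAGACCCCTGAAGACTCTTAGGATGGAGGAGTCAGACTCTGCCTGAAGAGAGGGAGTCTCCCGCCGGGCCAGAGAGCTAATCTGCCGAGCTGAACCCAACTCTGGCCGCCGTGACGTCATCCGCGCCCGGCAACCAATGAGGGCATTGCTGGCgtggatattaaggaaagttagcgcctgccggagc
Neurog2: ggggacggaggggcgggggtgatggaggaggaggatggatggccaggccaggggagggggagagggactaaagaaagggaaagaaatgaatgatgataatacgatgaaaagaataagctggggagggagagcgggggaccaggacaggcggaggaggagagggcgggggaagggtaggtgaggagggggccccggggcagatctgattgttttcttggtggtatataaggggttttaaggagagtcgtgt

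The Olig2 promoter was covered over all 250 bases, by peaks of 7 STAG2 lists and 1 STAG3 list. The Neurog1 promoter was also covered over its full length, by 3 STAG2 and all 3 STAG3 lists. At Pax6, 216 of the 250 bases lay under peaks, and these came from 2 STAG3 lists and from no STAG1 or STAG2 list. No list had a peak in the Neurog2 promoter or in the second Pax6 promoter (chr2:105682213-105682462). Sox1 (2 STAG2 lists and 1 STAG1 list) and Nes (6 STAG2 and 2 STAG3 lists) had covered promoters as well. The printed promoters held 22 CG pairs (Olig2), 29 (Neurog1), 15 (Pax6) and 8 (Neurog2), against a median of 10 over 21262 mouse promoters of this length.

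Peaks over the start base itself were counted beside those of all genes. No STAG1 list had a peak on the start of any of the 6 genes, where the same lists had one on 1.42% to 6.33% of the 17491 genes with an annotated promoter. In STAG2 lists outside GSC, 0 to 2 of the 6 starts had a peak, against 13.5% to 38.8% of all genes. The STAG2 lists of GSC had none, against 13.2%, 3.53% and 16.4% of all genes. In the 3 STAG3 lists the counts were 0, 2 (Neurog1 and Nes) and 1 (Neurog1), against 12.1%, 40.8% and 42.6% of all genes.

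The lists differed in length, and a longer list has more peaks near any gene. STAG1 lists held 9641 to 42013 peaks, STAG2 lists 13698 to 84904, STAG3 lists 12832, 38631 and 39681, and CTCF lists 39639 to 43877. Both proteins had their shortest lists in GSC. STAG3 replicate 1 stood apart: the overlap of its covered bases with the other STAG3 lists (Jaccard index) was 0.219 and 0.212, against 0.460 between those. The peak names of STAG3 lists point to another calling run than those of STAG1 and STAG2, so run and antibody cannot be told apart. The lists give no read depth, and no label ties replicate lists to separate cultures, so the p-values below reflect the spread among these lists, which may be technical.

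Over all 30 lists the 6 windows held 80 merged sites. Of these, 12 were CTCF sites, 1 (in Pax6) met CTCF in a single genotype, its peaks counted below as off CTCF, and 67 lay off CTCF. CTCF sites were called in a median of 19 of the 26 STAG lists and off-CTCF sites in a median of 2, and 28 of the off-CTCF sites were called in 1 list. The peaks of CTCF sites ranked high in their lists, at a median percentile of 68.9 for fold enrichment over background, a linear ratio given by the authors, against 26.3 for off-CTCF sites. STAG2 lists called 49 of the 67 off-CTCF sites, STAG3 lists 36 and STAG1 lists 12. The map of sites by cell type shows CTCF sites as columns of dots through most rows, except for some Neurog1 sites. It shows off-CTCF sites scattered in the rows of STAG2 in EpiLC and of STAG3.

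**Figure D1:**
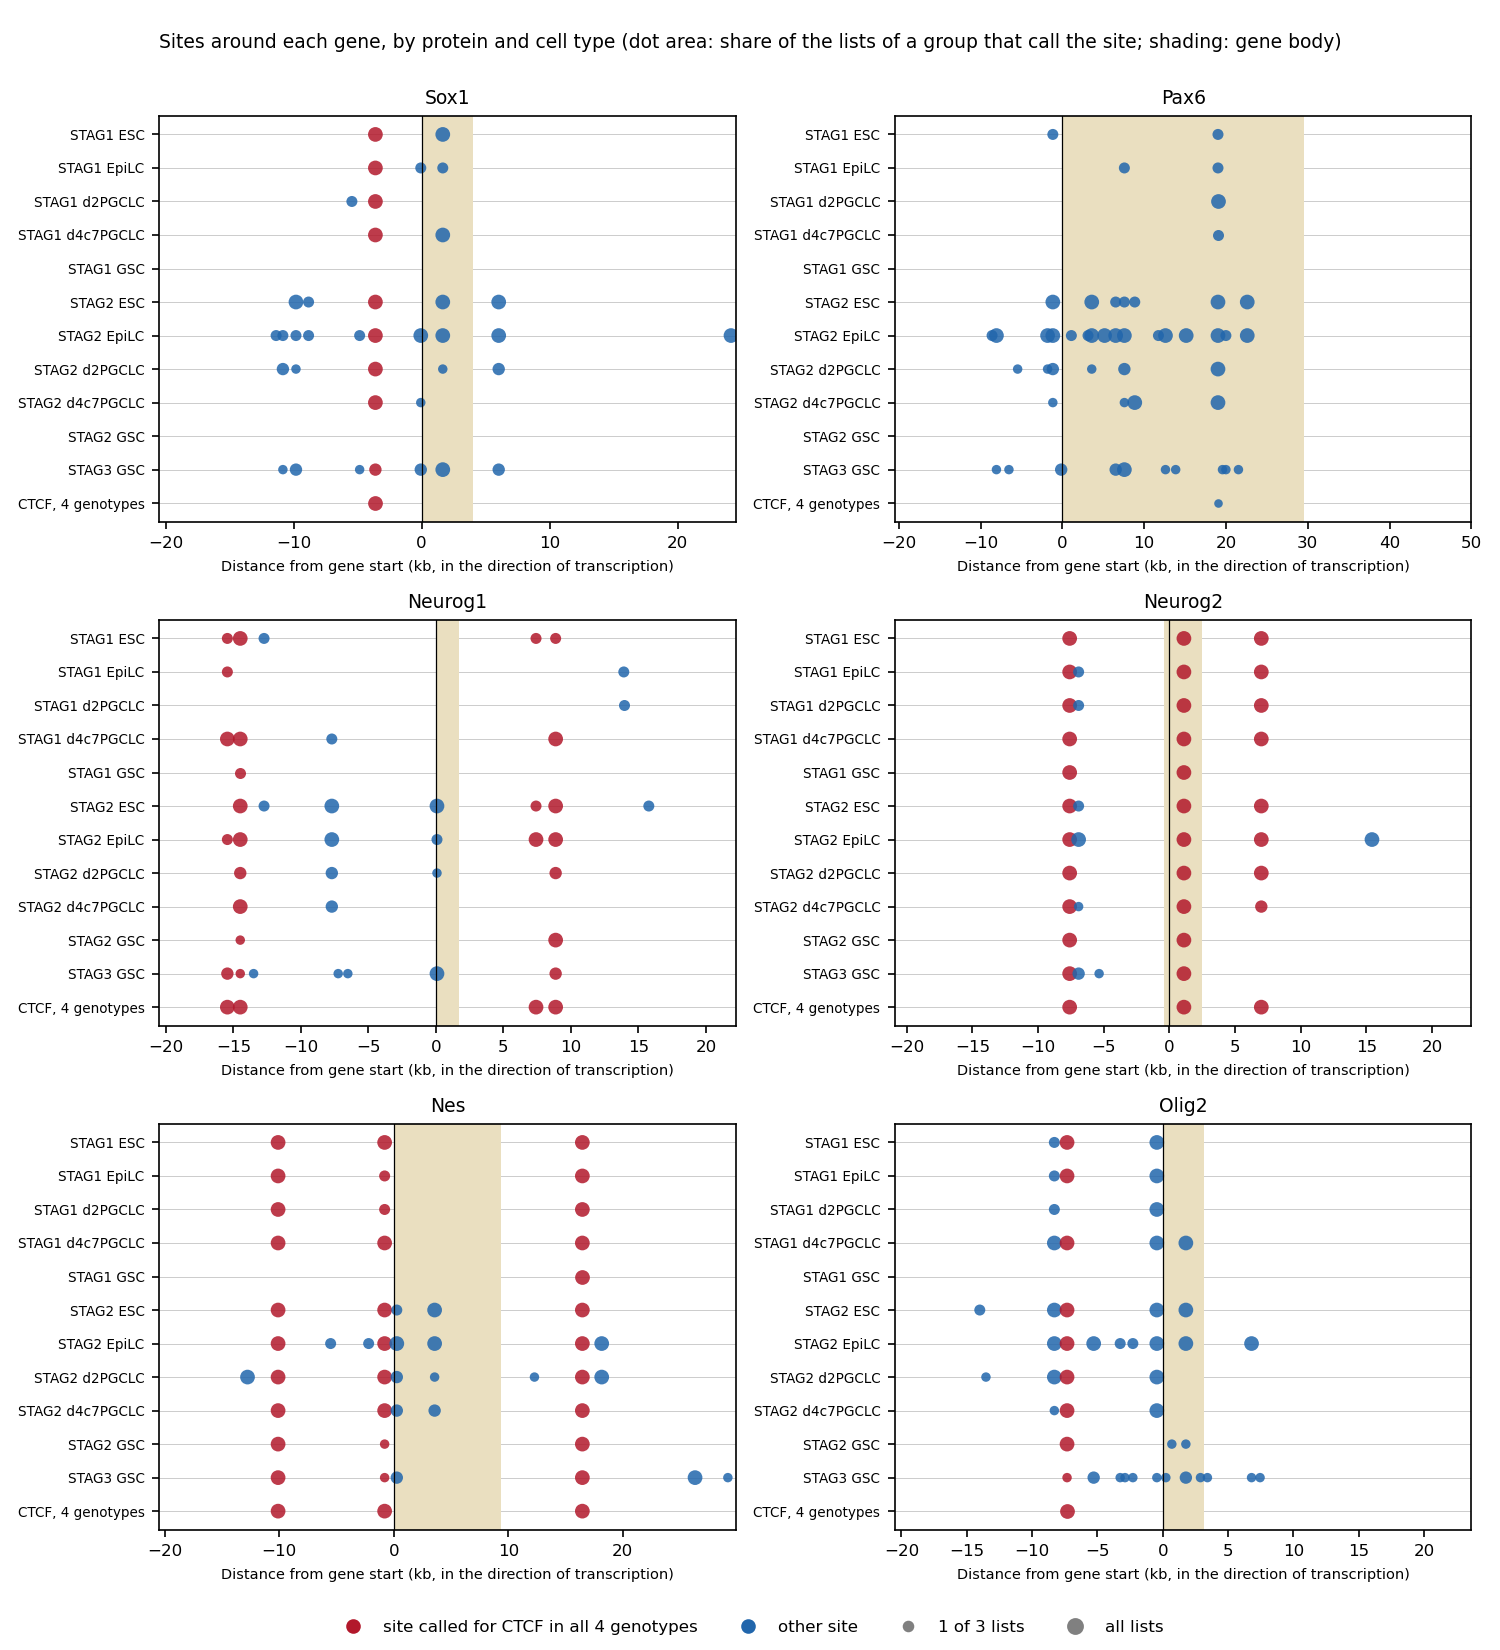
Sites around each gene by distance from its start in kb (x axis) and by protein and cell type (y axis), with dot area giving the share of a group's lists that call the site, red for CTCF sites, blue for others and shading for the gene body. Pax6 has no red dot, the rows of STAG1 and STAG2 in GSC hold 2 blue sites in all, both at Olig2, and the STAG3 row holds 36.

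Sox1, the SoxB1 factor of early neural plate, had most of its off-CTCF peaks in EpiLC and in STAG3 lists. For STAG2 it had 3 and 5 such peaks in the ESC lists, 8 and 7 in EpiLC, 5, 0 and 2 in d2PGCLC, 1, 0 and 0 in d4c7PGCLC and none in the 3 GSC lists. STAG1 lists had 0 to 2 such peaks, with none in GSC. STAG3 lists had 1, 7 and 9, the last of these above every STAG2 list. The most frequent off-CTCF site, in the gene body at chr8:12396319-12398028, was called in 13 STAG lists and in all 3 STAG3 lists.

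The CTCF site of Sox1, 3189 bases upstream at chr8:12391492-12392330, was called for STAG1 and STAG2 outside GSC only. Each of the 18 STAG1 and STAG2 lists outside GSC called it, and none of the 5 in GSC did. Its fold enrichment was 16.8 and 26.1 in the EpiLC STAG1 lists, the percentiles 98.0 and 99.1 of their peaks, and 97.4 and 86.7 in those for STAG2. In GSC it was called in STAG3 replicates 2 and 3, at 5.49-fold and 6.45-fold. Within each protein the GSC lists are the shortest, at 9641 and 10778 peaks for STAG1 and 13698 to 25979 for STAG2. The EpiLC STAG1 lists, which called the site, held 14720 and 25756, and the part of list length was not tested. The share of all sites called outside GSC only was not counted, here or for the sites of Pax6, Neurog2 and Olig2 below.

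Pax6, a paired-box factor of eye and forebrain progenitors, carried the most off-CTCF peaks over the STAG2 lists, in the longest window. Counts were not scaled to window length. STAG2 had 5 and 6 in ESC, 14 and 13 in EpiLC, 6, 1 and 3 in d2PGCLC, 4, 2 and 2 in d4c7PGCLC, and none in GSC. The EpiLC mean of 13.5 was above that of 99.0% of protein-coding genes of all lengths. STAG1 lists had 0 to 2, and the STAG3 lists had 2, 6 and 6, a mean of 4.67 against 5.67 for Sox1. The EpiLC sites were spread from upstream of the start to deep in the gene body. The site called in most lists, at chr2:105687543-105688287 in the gene body, was called in 15 STAG1 and STAG2 lists outside GSC, and in no STAG3 list. Its CTCF peak in Stag3 KO GSC was weak, 4.36-fold, at percentile 3.49 of that list, and no other genotype had one.

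Neurog1, the proneural factor of sensory ganglia, had a modest number of off-CTCF peaks. STAG2 had 2 and 4 in ESC, 2 and 1 in EpiLC, 2, 0 and 1 in d2PGCLC, 1, 0 and 1 in d4c7PGCLC and none in GSC. STAG1 lists had 0 or 1. STAG3 lists had 2, 3 and 5, and all 3 called peaks in a merged site around the start, at chr13:56251498-56252708, where the peaks of replicates 2 and 3 cover the start base. At its 4 CTCF sites the counts varied more than for any other of these genes. STAG1 had 4 and 1 peaks there in ESC, 0 and 1 in EpiLC, none in d2PGCLC, 3 and 3 in d4c7PGCLC and 0 and 1 in GSC. STAG2 had 3 and 2, 4 and 3, then 2, 0 and 2, then 1 in each d4c7PGCLC list, and 1, 1 and 2 in GSC. The CTCF site called most often, 14126 bases upstream at chr13:56266306-56267041, was found in 16 STAG lists.

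Neurog2, the proneural factor of cortex and spinal cord, had 0 to 2 off-CTCF peaks in every STAG1, STAG2 and STAG3 list. For STAG2 its mean was above that of 0.0% (d2PGCLC and GSC) to 47.0% (EpiLC) of protein-coding genes. For STAG1 this share ran from 0.0% (ESC, d4c7PGCLC and GSC) to 76.4% (EpiLC), and for STAG3 it was 42.6%. Neurog2 had 2 or 3 CTCF-site peaks in every one of the 26 lists. The site 7248 bases upstream (chr3:127625200-127625888) and that in the gene body (chr3:127633787-127634701) were called in all 30 lists. In the CTCF lists the gene body site ranked between percentiles 98.6 and 99.1. In STAG3 replicates 2 and 3 it ranked at 98.0 and 97.1, and in replicate 1 at 53.1. The third site, 6696 bases downstream of the start (chr3:127639832-127640442), was called in 17 of the 18 STAG1 and STAG2 lists outside GSC, and in no STAG list of GSC.

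Nes, the nestin gene, had off-CTCF peaks for STAG2 and none for STAG1 in any of the 10 lists. STAG2 had 2 and 4 in ESC, 6 and 4 in EpiLC, 6, 2 and 5 in d2PGCLC, 2, 1 and 1 in d4c7PGCLC and none in GSC. STAG3 lists had 1, 2 and 4. A site 12551 bases upstream, at chr3:87958081-87958542, was called in the 3 STAG2 lists of d2PGCLC and in no other. The CTCF site that overlaps Bcan, which encodes the brain proteoglycan brevican, at chr3:87986645-87988469, was called in all 26 STAG lists. Its fold enrichment reached 241 and 196 in the EpiLC STAG2 lists, against 16.3 and 15.5 in those for STAG1. By rank the site was near the top of both, at percentiles 99.4 to 99.7 for STAG2 and 93.2 to 97.7 for STAG1. Some of the STAG2 peaks counted as off CTCF lie beside it, within the same merged site.

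Olig2, a ventral progenitor factor, had its main off-CTCF site just upstream of the start, at chr16:91224633-91225568. The merged site reaches the start through a single EpiLC STAG2 peak, and the STAG1 peaks within it all ended upstream of the 250 promoter bases. All 18 STAG1 and STAG2 lists outside GSC called it, none of the 5 in GSC did, and STAG3 replicate 3 called it at 5.28-fold. Its fold enrichment was 79.9 and 72.6 for STAG2 in EpiLC, the percentiles 94.0 and 93.0, and 7.22 to 11 in d4c7PGCLC. For STAG1 it ranged from 8.31 to 24.6. In all, STAG2 had 3 and 4 off-CTCF peaks in ESC, 6 and 6 in EpiLC, 3, 2 and 2 in d2PGCLC, 1, 2 and 1 in d4c7PGCLC and 1, 0 and 1 in GSC. STAG1 had 2 and 1, 1 and 2, 1 and 2, 3 and 3, and none in GSC, so in d4c7PGCLC every STAG1 list lay above every STAG2 list. STAG3 lists had 0, 5 and 8. The CTCF site 7006 bases upstream (chr16:91217914-91218544) was called in 20 STAG lists, among them all 3 STAG2 and neither STAG1 list of GSC.

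**Figure D2:**
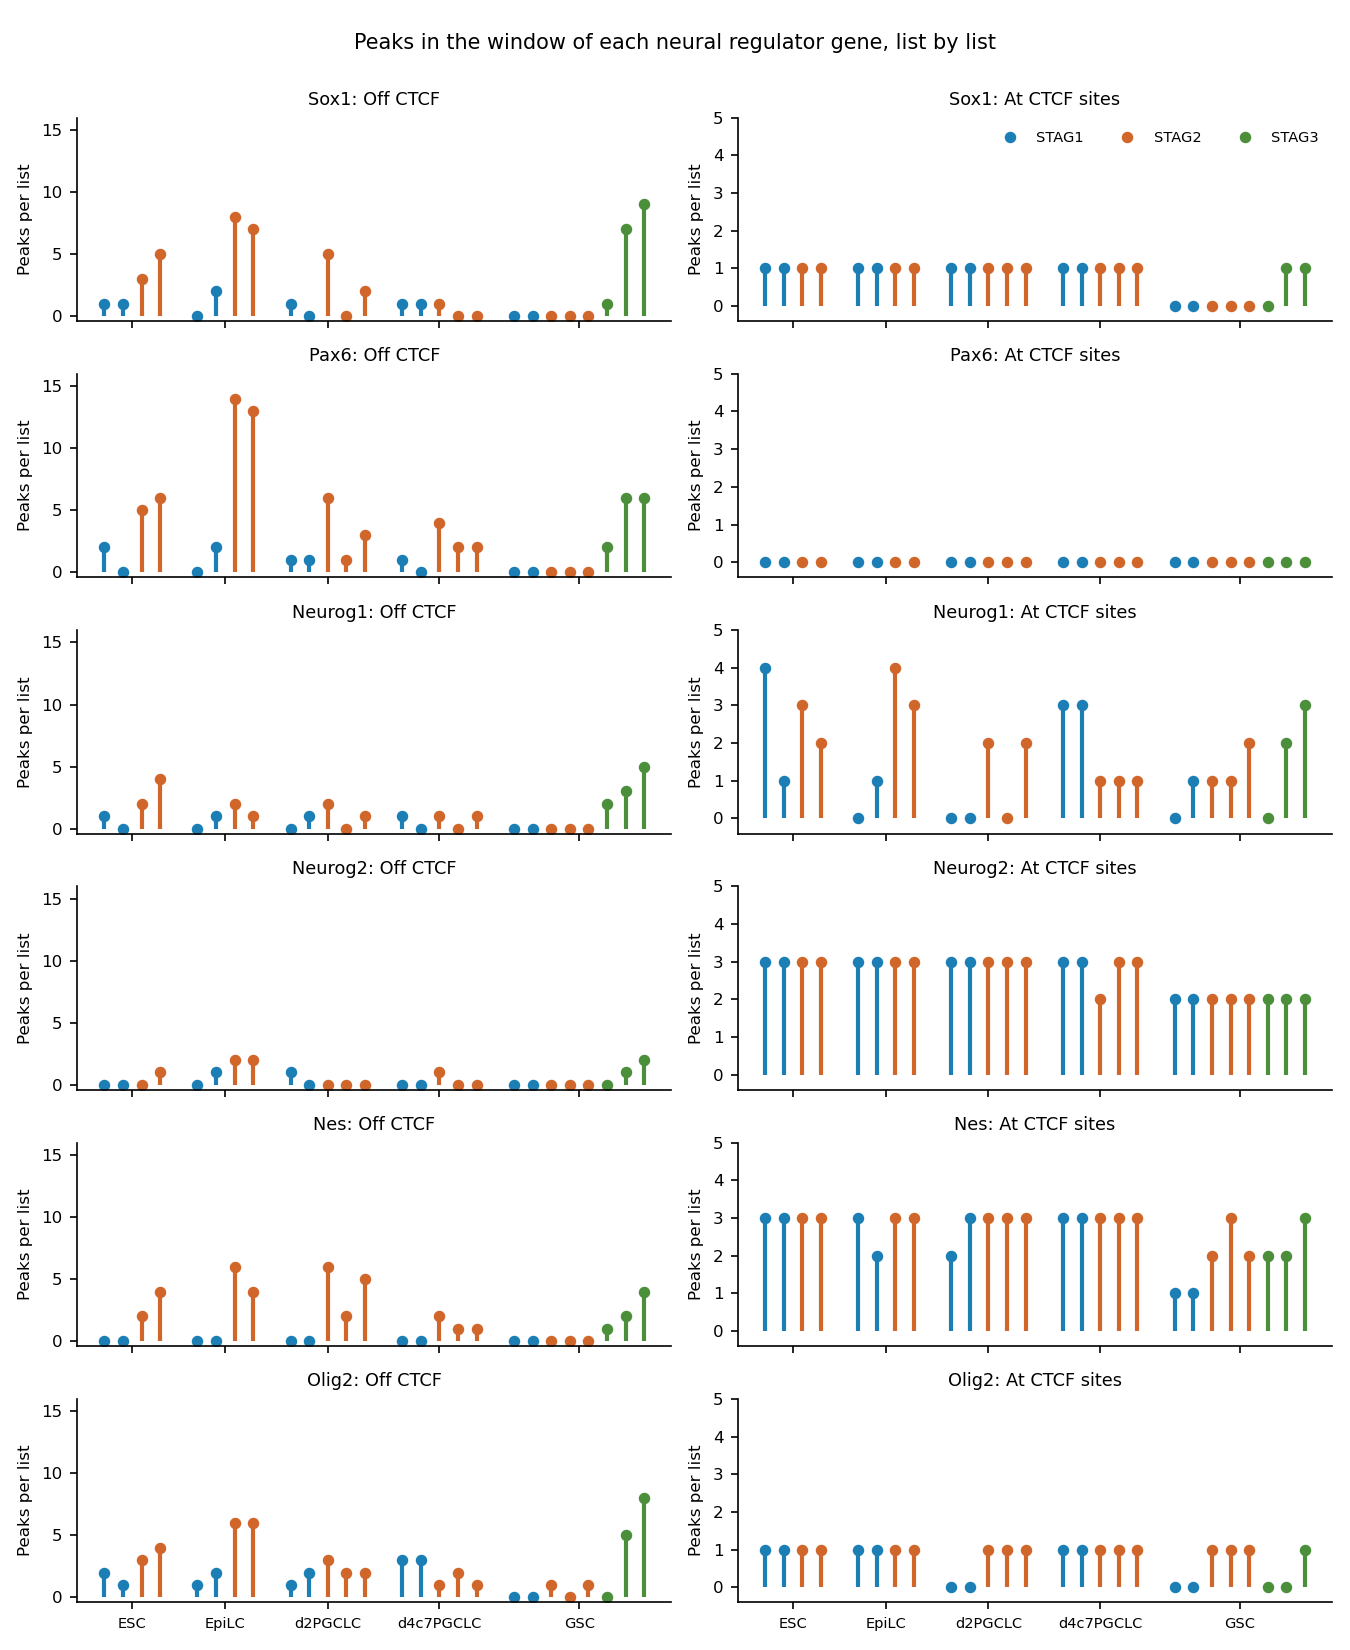
Peaks per list (y axis) in the window of each gene, off CTCF on the left and at CTCF sites on the right, with 1 point for each of the 26 STAG lists grouped by cell type (x axis) and coloured by protein. Off CTCF, the points of STAG2 in EpiLC reach 14 for Pax6 and the 5 STAG1 and STAG2 points of GSC are at 0 for all genes but Olig2, while STAG3 points reach 9. At CTCF sites, Neurog2 stays at 2 or 3 in every list.

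**Figure D3:**
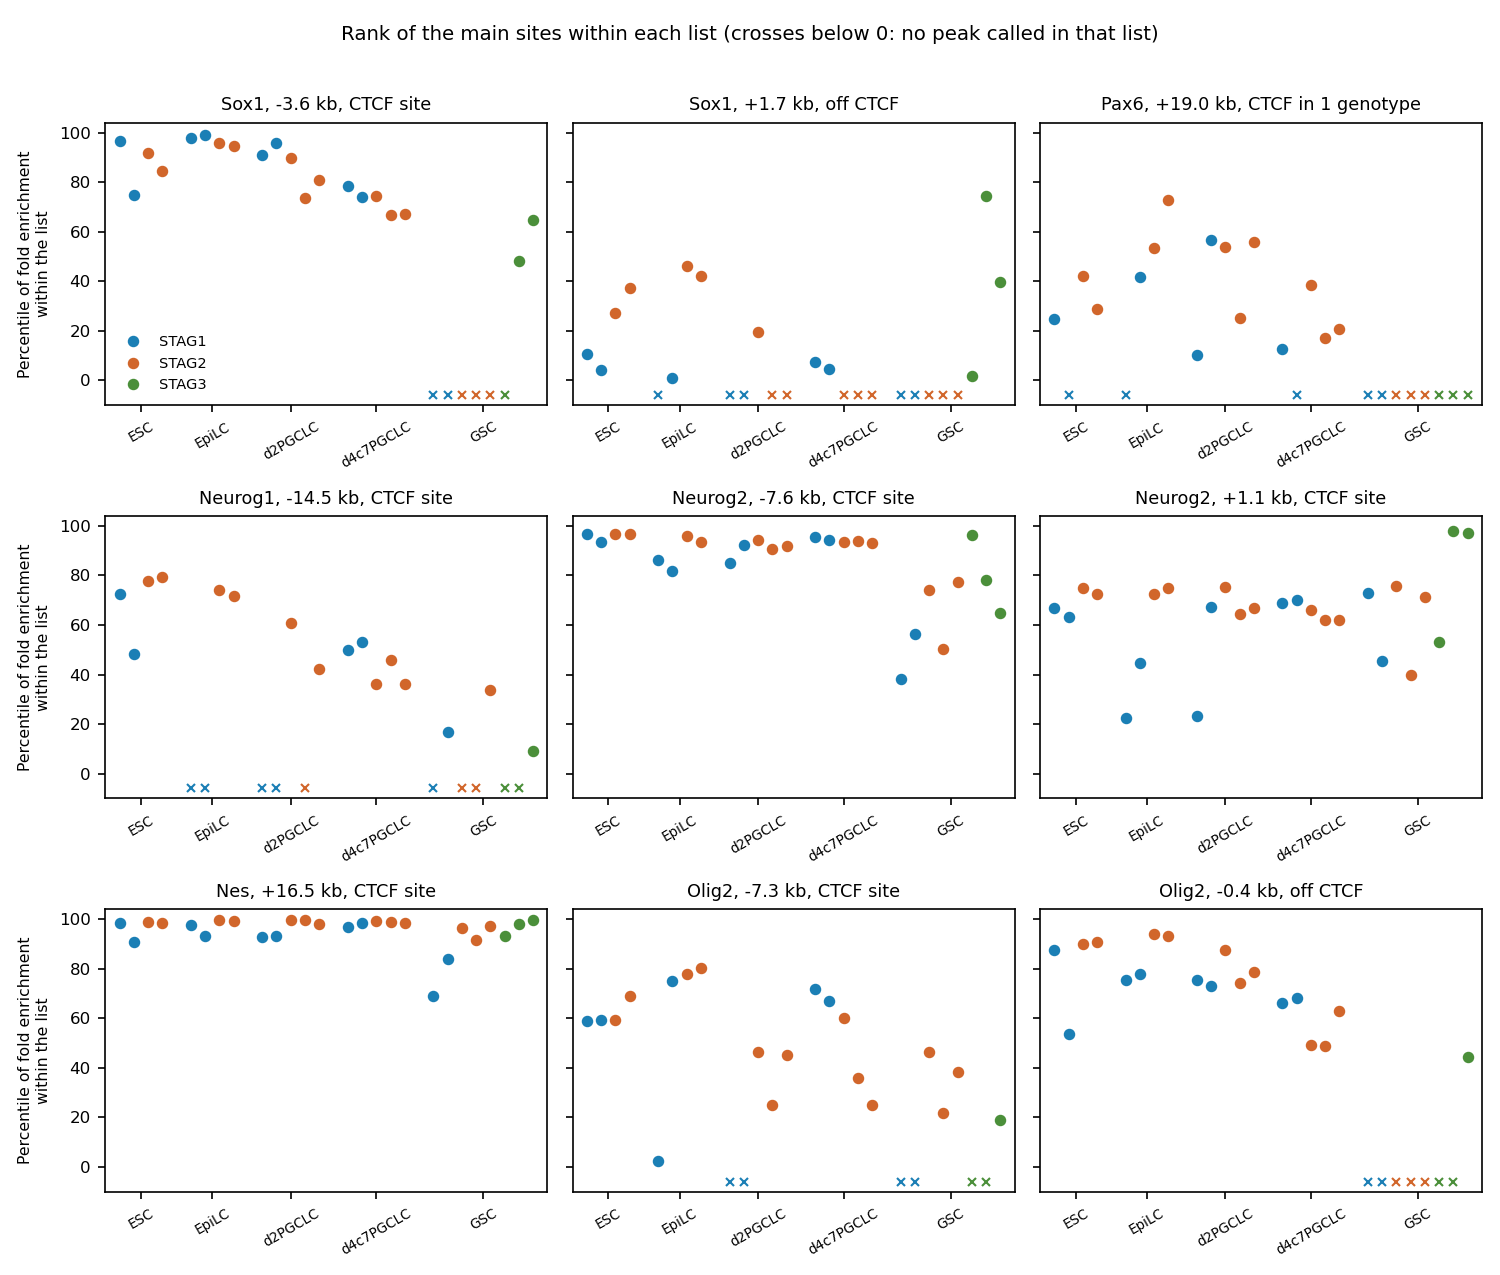
Percentile of fold enrichment within each list (y axis) for 9 main sites, with 1 point for each list that calls the site, grouped by cell type (x axis), and a cross below 0 for a list that does not. The Sox1 CTCF site and the Olig2 site next to the start have crosses in the 5 STAG1 and STAG2 lists of GSC and in no list of another cell type, whereas the Nes and Neurog2 CTCF sites have none. The share of all sites with the former pattern was not counted.

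STAG2 and STAG1 were compared over all cell types by an exact permutation test, two-sided, that exchanged list labels within each cell type (10 STAG1 and 13 STAG2 lists). The statistic was the difference in peaks per window, averaged over the 5 cell types. The test was run on every protein-coding gene with such a peak, and p-values were adjusted over all of them by Benjamini-Hochberg.

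Off CTCF, Sox1, Pax6 and Nes had more STAG2 than STAG1 peaks, 3 of the 6 genes. Of the 19223 genes tested, 65.2% were higher for STAG2 and 0.052% lower. The difference was 4.30 peaks for Pax6 (means of 4.31 in STAG2 and 0.700 in STAG1 lists, adjusted exact p = 0.00708), 2.73 for Nes (2.54 and 0, 0.00511) and 2.13 for Sox1 (2.38 and 0.700, 0.0412). The differences of 1.27 for Olig2 (adjusted exact p = 0.0806), 0.833 for Neurog1 (0.0651) and 0.367 for Neurog2 (0.195) did not pass. The median difference was 1.7 for the 6 genes and 1.07 for all genes tested. That 3 of 6 passed is thus near the background of these longer STAG2 lists.

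Pax6 and Nes also passed when peaks were counted per 10000 peaks of the list (adjusted exact p = 0.0117 and 0.00373), and Sox1 did not (0.327). Nes had no off-CTCF peak in any STAG1 list, so that scale could not reverse its difference. On that scale 8298 of the 19223 genes were higher and 144 lower. By presence or absence of a peak, Nes alone passed, and Pax6 had an adjusted exact p of 0.158. With each list reduced to its 9641 peaks of highest fold enrichment, Olig2 alone kept off-CTCF peaks to test, with a difference of -0.0333 (adjusted exact p = 1). The Sox1 call was also lost without either ESC STAG1 list (adjusted exact p = 0.0686 and 0.0719), ESC STAG2 replicate 2 (0.0767), EpiLC STAG2 replicate 1 (0.0529), either d2PGCLC STAG1 list (0.0567 and 0.0771), d2PGCLC STAG2 replicate 1 (0.0547) or d4c7PGCLC STAG2 replicate 1 (0.0532). Neurog1 passed without d2PGCLC STAG2 replicate 2 (0.0307), d4c7PGCLC STAG1 replicate 1 (0.0361) or d4c7PGCLC STAG2 replicate 2 (0.0326), by the same adjusted exact test.

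Within cell types, every STAG2 list had more off-CTCF peaks than every STAG1 list for 5 of the 6 genes in ESC (all but Neurog2), against 68.1% of genes with such a peak, and for 5 in EpiLC (all but Neurog1), against 85.2%. In d2PGCLC this held for Nes alone, against 44.8%. In d4c7PGCLC it held for Pax6 and Nes, against 14.0%, and the reverse order held for Olig2, against 3.03%. In GSC Olig2 alone had such a peak, and the order did not hold for it, against 15.5%. In ESC, EpiLC, d2PGCLC and GSC the reverse order held for none of the genes with such a peak, against 0.177%, 0.0282%, 0.106% and 0.187%.

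At CTCF sites none of the 5 genes with such peaks differed between STAG2 and STAG1, where 1.75% of the 15822 genes tested were higher and 0.0% lower. At an unadjusted exact p under 0.05 there were 4396 genes higher and 8 lower, among the former Olig2 (p = 0.01, a difference of 0.4) and Nes (p = 0.02, 0.467). Sox1 had 1 CTCF-site peak in each of the 18 lists outside GSC whatever the protein, a difference of 0. The scale changed this comparison. Per 10000 peaks, 273 genes were higher and 7670 lower, among the latter Sox1 and Neurog2. Both proteins had equal Sox1 counts in each cell type, so on that scale the sign for Sox1 follows list length alone. Neurog2 counts were equal in all cell types but d4c7PGCLC, so much the same holds for that gene. With lists of equal length, 182 genes were higher and 359 lower.

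Within cell types, Neurog1 had more CTCF-site peaks in every STAG2 than in every STAG1 list of EpiLC, 1 of 5 genes, against 56.8% of genes with such a peak. Olig2 alone did so in d2PGCLC, against 18.5%, and Nes and Olig2 did in GSC, against 15.0%. None did in ESC (14.7%) or d4c7PGCLC (0.902%). The reverse order held for Neurog1 in d4c7PGCLC, against 9.86%, and for none of the genes in ESC (0.744%), EpiLC (0.121%), d2PGCLC (0.0984%) or GSC (0.158%).

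GSC were compared with the other 4 cell types by the same kind of exact permutation test, with labels exchanged within STAG1 and within STAG2. For each protein, the lists of GSC hold fewer peaks than those of the other cell types, and the part of list length in these differences was not tested. Off CTCF, Olig2 was lower in GSC, by 2.10 peaks (means of 0.4 in 5 GSC lists and 2.50 in 18 others, adjusted exact p = 0.0292), where 17.8% of genes tested were lower and 0.0884% higher. Without any single GSC list the Olig2 call was lost, with adjusted exact p between 0.0586 and 0.117. The other 5 genes had no off-CTCF peak in any GSC list of STAG1 or STAG2, and their differences, from -0.425 for Neurog2 to -3.24 for Pax6, had adjusted exact p from 0.0627 (Nes) to 0.415 (Neurog2). The median difference was -1.82 for the 6 genes and -0.725 for all.

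At CTCF sites Sox1, Neurog2 and Nes had fewer peaks in GSC, 3 of 5 genes, where 62.8% of genes tested were lower and 0.145% higher. The difference was -1 for Sox1 (0 in GSC, 1 elsewhere), with the smallest p this exact test can give, 7.77e-05, and an adjusted exact p of 0.000571. It was -0.950 for Neurog2 (2.00 and 2.94, adjusted exact p = 0.00129) and -1.21 for Nes (1.80 and 2.89, 0.00249). Neurog1 (-0.783, adjusted exact p = 0.381) and Olig2 (-0.375, 0.179) did not pass. Per 10000 peaks Sox1 was again lower (adjusted exact p = 0.000353). Its GSC counts of 0 stay 0 on that scale, so this setting could not reverse the difference. With lists of equal length the Sox1 difference of -0.64 did not pass (adjusted exact p = 0.0798). Per 10000 peaks, Neurog2 was higher in GSC, by 0.663 (adjusted exact p = 0.00435), and Nes was at 0.338 (0.0988). Neurog2 counts were 2 in every GSC list and 2 or 3 elsewhere, so its values on that scale vary mainly with list length. On that scale 5393 genes were higher and 4042 lower, and with lists of equal length 1832 were higher and 1698 lower. The plot of differences places each gene within the spread over all genes.

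**Figure D4:**
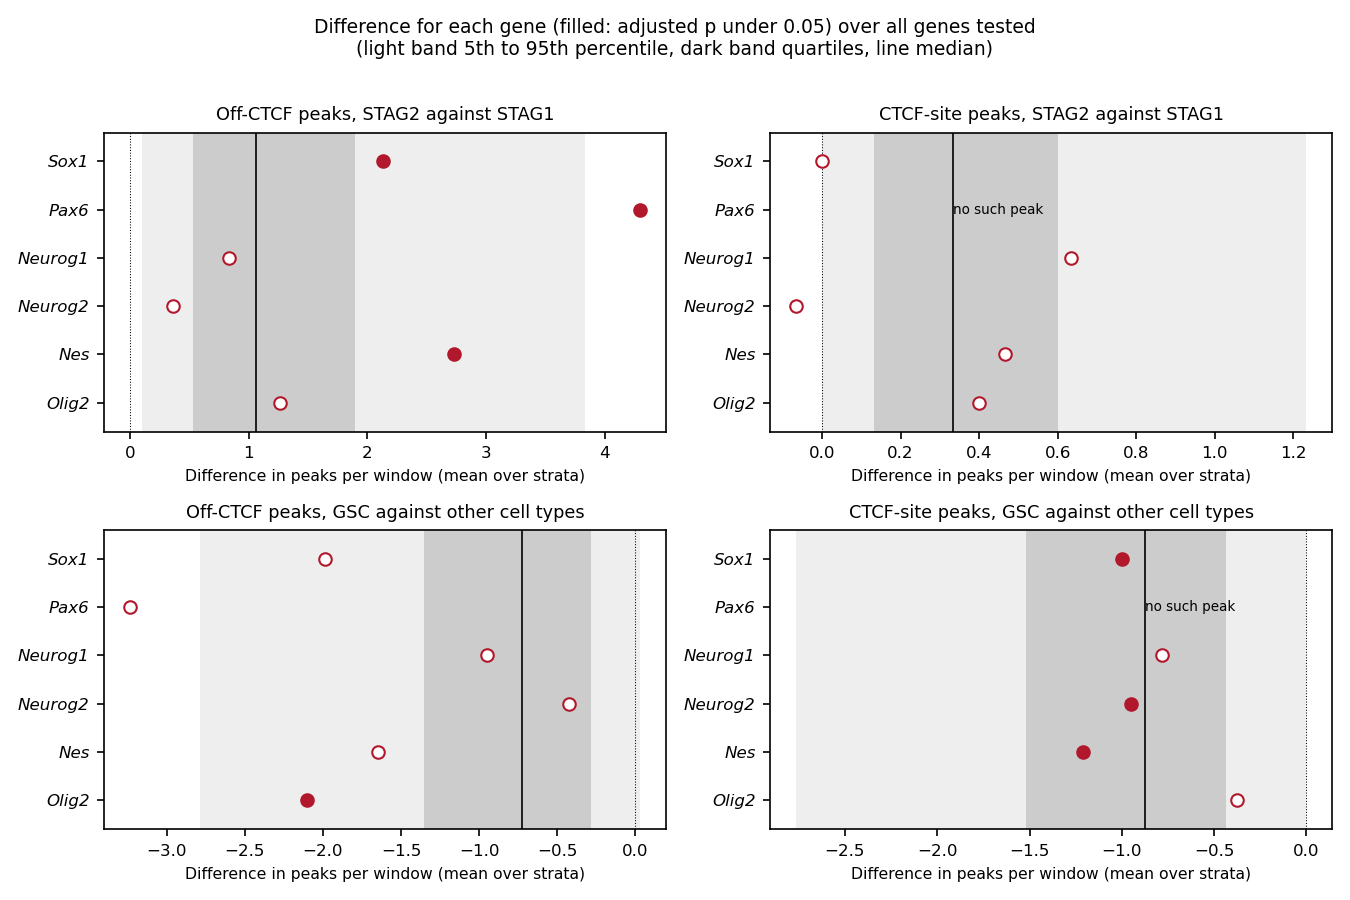
Difference in peaks per window (x axis) for each gene (y axis) in the 4 comparisons, filled where the adjusted exact permutation p passed 0.05, over the distribution for all genes tested (light band, 5th to 95th percentile; dark band, quartiles; line, median). Pax6 lies outside the light band in both off-CTCF comparisons, and the filled points at CTCF sites in GSC lie near the median of all genes; per 10000 peaks of the list, Neurog2 and Nes lie above 0 there.

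A list of 52 other neural genes (SoxB and SoxC, Pax, proneural, Olig and Nkx, POU and Zic, and regional homeobox factors, Notch repressors and neural cytoskeletal genes) was counted beside them. Off CTCF, 44 of the 50 tested were higher for STAG2 (65.2% of all genes were), with a median difference of 1.82. Sox11, a SoxC factor of immature neurons, had means of 3.00 in STAG2 and 0.300 in STAG1 lists (adjusted exact p = 0.00311). Olig1, the neighbour and relative of Olig2, had 2.08 and 0.200 (adjusted exact p = 0.00311). In GSC, 8 of 50 were lower off CTCF, near the 17.8% of all genes, among them the neural adhesion gene Ncam1 (0.600 against 5.44, adjusted exact p = 0.00503) and Nkx2-2, a ventral neural tube factor (0 against 2.44, 0.00673). At CTCF sites 0 of 37 differed between STAG2 and STAG1, and 22 of 37 were lower in GSC, near the 62.8% of all genes. Among the latter, the RNA-binding protein gene Msi1 had 8.39 peaks elsewhere and 3.40 in GSC, and Pax5 had 5.39 and 3.00, each with an adjusted exact p of 0.000571.

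Within GSC, STAG3 lists called many more off-CTCF peaks around these genes than STAG2 lists did. The 6 windows together held 6, 24 and 34 in the 3 STAG3 lists, against 1, 0 and 1 in the 3 STAG2 lists and none in the 2 STAG1 lists. Per gene this is 3.56 ± 2.36 for STAG3 and 0.111 ± 0.0962 for STAG2 (mean ± SD, n = 3 lists each), beside 1.41 ± 0.797 and 0.426 ± 0.267 over all protein-coding genes. The other neural genes had 2.91 for STAG3 and 0.532 for STAG2. Every one of the 6 genes had an off-CTCF peak in STAG3 replicates 2 and 3, and all but Neurog2 and Olig2 in replicate 1. Among all genes, 68.8% and 69.4% had one in replicates 2 and 3 and 33.3% in replicate 1. With 3 lists against 3 the exact test cannot go below 0.1, so no test was made, and the 3 STAG3 lists spread widely.

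STAG1 and STAG2 lists of GSC held only 2 off-CTCF sites around these genes, both at Olig2, so few STAG3 peaks could meet one. The overlap was 0 of 6, 1 of 24 and 1 of 34 off-CTCF peaks in the 3 lists, or 0%, 4.17% and 2.94%. Over all off-CTCF peaks of the same lists it was 45.6%, 36.3% and 35.7%. With STAG1 or STAG2 peaks of the other cell types, the overlap was 66.7%, 70.8% and 70.6% around these genes, and 74.1%, 59.0% and 58.0% overall. Counted as sites, STAG3 was called at 36 off-CTCF sites, of which 35 had no STAG1 or STAG2 peak in GSC and 20 had one in another cell type. Of the 13 sites called in at least 2 STAG3 lists, 12 had none in GSC and 11 had one in another cell type. Leaving out STAG3 replicate 1 left the count at 36, without replicate 2 it was 29 and without replicate 3 it was 20, with 1 site shared with GSC STAG1 or STAG2 each time.

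All 3 STAG3 lists called 4 off-CTCF sites: in the Sox1 gene body (above), in the Pax6 gene body at chr2:105676047-105676885, around the Neurog1 start (above), and in the Nes window at chr3:87997216-87997583 within Bcan. The first 3 were also called for STAG2 in ESC and EpiLC. The last was called in no other list, at 6.39-fold, 5.72-fold and 4.89-fold. At CTCF sites the counts of STAG3 and STAG2 lists overlapped. Neurog2 had 2 peaks in each STAG3 and each STAG2 list of GSC, and Nes had 2, 2 and 3 for STAG3 and 2, 3 and 2 for STAG2.

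At the level of sites, those called in every STAG2 list of a cell type and in no STAG1 list of it were counted. EpiLC had 22 of 54 such sites (40.7%), against 50.1% of all sites in the genome, and ESC had 8 of 34 (23.5%, against 29.0%). In EpiLC, 9 of the 22 were in Pax6 and 3, all in Neurog1, were CTCF sites. In d2PGCLC there were 3 of 33 (9.09%, against 16.5%): 2 off CTCF near Nes and the CTCF site of Olig2. In GSC there were 3 of 10 (against 9.11%), all CTCF sites: 1 each of Neurog1, Nes and Olig2. In d4c7PGCLC a single site of 24, in Pax6, was of this kind (4.17%, against 4.42%), and 4 were called in both STAG1 lists and no STAG2 list (16.7%, against 4.29%). These 4 lay near Sox1 (1 site), Neurog1 (2 sites, both CTCF sites) and Olig2 (1 site). The other cell types had no such site around these genes, against 0.192% (ESC), 0.0838% (EpiLC), 0.119% (d2PGCLC) and 0.223% (GSC) of all sites there.

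The 12 CTCF sites were chosen as called in all 4 GSC genotypes, so only their ranks can be compared. With 1 pooled list per genotype there is no replicate error. The steadiest ranks were those of the Neurog2 gene body site and of the Nes site at Bcan, at percentiles 89.0 to 89.8. The most variable was a weak Neurog1 site at chr13:56244521-56245014, at percentile 2.51 in Stag3 KO, 11.1 in Stag1Stag2dKO, 15.1 in Stag1Stag3dKO and 28.7 in Stag2Stag3dKO. The Sox1 site ranked at 42.2, 29.6, 25.9 and 45.3 in the same order.

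The genes did not share a single pattern over the 26 STAG lists. Counts per list, divided by the mean count per gene of that list, gave Pearson correlations between members from -0.429 (Pax6 and Neurog2) to 0.719 (Sox1 and Pax6), as a description over lists that share cells and antibodies. Among 15673 genes, those most like Sox1 were Iqank1 (r = 0.912), Fam83h and Qsox2, and those most like Pax6 were Zfp108 (0.871), Otx1 (0.853), a forebrain homeobox gene, and Zfp109. Neurog2 was closest to Zfp169 (0.961), Tmco5 and Chrnb3. Neurog1 (Dyrk4, 0.737; Ltk, Pole2), Nes (Klf4, 0.772; Nfkbiz, Gtf2ird2) and Olig2 (Pld4, 0.790; Mapk15, Egfl8) had no neighbour above 0.8.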

How the data were processed

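Cohesin and CTCF peak lists of mouse cells were used as deposited. The submitters' processing notes name the peak caller MACS2, the aligner Bowtie2 2.3.4.1, Trim Galore 0.4.1 with cutadapt 1.9.1, and deepTools 3.5.0, bedtools 2.29.2 and SAMtools 1.7, on mm10 (GRCm38.p3). Caller settings and control libraries are not given. The deposited lists give a score, a fold (linear ratio over background), a −log10 p, a −log10 q and a summit offset per peak, as the authors' peak caller wrote them. Every deposited −log10 q was at least 2. Read depth is unknown.

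With Python 3.11.15, numpy 2.4.6 and pandas 2.3.3, peaks with at least 1 bp in a gene window were counted per list, split by overlap of at least 1 bp with CTCF sites. Exact permutation tests over lists allowed 36000 (STAG2 against STAG1) and 12870 (GSC) arrangements, with calls at adjusted p under 0.05, and were tested on simulated data. Simulated counts of a gene had the same mean in every list, save for added changes, so differences in list length were not covered. Likeness was ranked over genes with at least 26 peaks. Other neural genes were named by smallest adjusted p, then largest difference, at most 3 in each direction per comparison; 1 gene that this rule names is not reported here. Sites were named by the number of lists, by STAG2 without STAG1, or by STAG3. The 6 genes and the gene lists were chosen with earlier results of these data known. Alternatives varied the window (5 and 50 kb), CTCF rule, threshold, scale, list length, genes tested, lists and replicate block.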

Additional observations from a re-analysis of the deposited data

Results flagged for a closer look

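For 2 genes the STAG lists of different cell types moved in opposite directions without overlap. Neurog1 at CTCF sites had more peaks in every STAG2 list than in every STAG1 list of EpiLC, with a mean difference of 3.0, and fewer in d4c7PGCLC, with a mean difference of -2.0. Of all genes with such a peak, 56.8% had the first order in EpiLC and 9.86% the second in d4c7PGCLC. Olig2 off CTCF had more peaks in every STAG2 list of ESC (a mean difference of 2.0) and EpiLC (4.5), and fewer in d4c7PGCLC (-1.67). Off CTCF, 68.1% and 85.2% of genes with such a peak had the first order in ESC and EpiLC, and 3.03% the second in d4c7PGCLC. How many genes show both orders was not counted. The difference between cell types was tested for neither gene. In d4c7PGCLC the STAG1 lists held 38491 to 42013 peaks and the STAG2 lists 35799 to 53988, whereas in EpiLC they held 14720 to 25756 and 82994 to 84904; the part of list length was not tested.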

How the results depend on the processing

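Peak counts depend on list length, depth is unknown, and CTCF sites come from mutant GSC, so levels compare lists and not binding strength. Over the 6 genes, 688 of 732 values stayed on their side of the threshold, and 677 of these did so with no change of sign. STAG2 against STAG1 off CTCF called 12536 genes and 3 of the 6: 249 and 0 with lists of equal length, 7229 and 1 by presence, 6683 genes under the replicate block, 5 of the 6 at 50 kb (with 16964 genes), and 10852 to 13228 and 2 to 4 with a list left out. At CTCF sites (277 and 0) it called 1411 genes with CTCF of any genotype, 86 at 5 kb, 1301 at 50 kb (with 1, Nes), 541 with equal lengths, 7943 per 10000 peaks (with 2), 107 at a stricter q, 0 with all genes tested, 0.5 of the peak covered, presence or the replicate block, and 0 to 650 and 0 with a list left out. GSC off CTCF (3447 and 1) gave 1336 and 0 with CTCF of any genotype, 1866 and 0 at 5 kb, 6910 and 2 at 50 kb, 377 and 0 with equal lengths (90 higher, 287 lower), 2170 and 0 under the replicate block, 3 of the 6 (Pax6, Nes, Olig2) per 10000 peaks (with 2794 genes) or by presence (with 3324), and 1067 to 4361 and 0 to 1 with a list left out. GSC at CTCF sites (9961 and 3) gave 6552 at 5 kb, 3530 and 1 with equal lengths (Neurog2, higher), 4200 and 1 by presence, and 8361 to 10468 and 3 with a list left out. The sign changed in 14 values. A called value was involved in 3 of them, all for GSC at CTCF sites: Nes (0.338 per 10000 peaks) and Neurog2 (0.875 with equal lengths, 0.663 per 10000 peaks). In the other 11, which passed neither way, Neurog1 and Olig2 changed sign at CTCF sites in both comparisons, Nes and Neurog2 there for STAG2 against STAG1, and Olig2 and Neurog2 off CTCF for STAG2 against STAG1, at equal lengths or per 10000 peaks except for 1 value at 50 kb. The cause was not tested. Under the replicate block both the Sox1 call for STAG2 against STAG1 (adjusted exact p = 0.0991) and the Olig2 call in GSC (0.0693) were lost. The former block left out STAG2 lists with no same-numbered STAG1 list. Deviations of same-numbered STAG1 and STAG2 lists of a cell type were hardly correlated over genes (r from -0.0589 to 0.00424). Such an r cannot exclude that these lists shared a culture. That r does not bear on the Olig2 block, which joined same-numbered lists of a protein across cell types. Why the calls were lost was not tested.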
